A study of Mus musculus with 8 samples.

Results

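Chemokines are small secreted proteins that bind receptors on leukocytes and draw these cells along a gradient, and fat tissue makes several of them when it meets bacterial products such as endotoxin. The 10 chemokine genes described here are *Ccl2*, *Ccl7*, *Ccl8*, *Ccl11*, *Cxcl1*, *Cxcl5*, *Cxcl9*, *Cxcl10*, *Cxcl12* and *Cxcl14*, of 37074 gene names on the array. They were found by their name in the scanner output, where they have 13 probes of 56605 in all: *Cxcl10*, *Cxcl12* and *Cxcl14* have a pair of probes each and the other genes 1 each. RNA came from C57BL/6J mice that were 12 weeks old, males by the study's methods. The 4 Pg mice had been injected intravenously with sonicated *P. gingivalis*, an anaerobe of periodontal pockets, in 100 μL of saline, at a dose that the labels print as 108 CFU with its exponent not raised, and the 4 Co mice with saline alone. The tissue, labelled brown adipose tissue, was collected 18 h later, and each mouse had 1 Agilent one-color array (n = 4 per group). The labels name no transgene, and the design holds 1 challenge at 1 time.

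The CC chemokines CCL2 and CCL7 attract monocytes mainly through CCR2, mouse CCL8 acts through CCR8, and CCL11, or eotaxin, attracts eosinophils through CCR3. The CXC chemokines with an ELR motif, CXCL1 and CXCL5, attract neutrophils through CXCR2, and their genes are textbook targets of NF-κB downstream of Toll-like receptors. CXCL9 and CXCL10 are induced by interferons and attract activated T cells and NK cells through CXCR3. CXCL12, the ligand of CXCR4, and CXCL14, which brown fat is known to secrete, are made by stromal and fat cells without a challenge.

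Probe positions are in mm9, the build named in the scanner files. The probes of *Ccl2*, *Ccl7*, *Ccl11* and *Ccl8* lie within 79518 bases of chromosome 11, on the plus strand (chr11:81850650-81930167). Those of *Cxcl5* and *Cxcl1* lie within 131650 bases of chromosome 5, on the plus strand (chr5:91190490-91322139), and those of *Cxcl9* and *Cxcl10* 1 farther along it, on the minus strand, within 23650 bases (chr5:92752191-92775840). The *Cxcl1* probe is at chr5:91322080-91322139. On chromosome 6 the probe starts of *Cxcl12* are 6201 bases apart (chr6:117131227-117131286 for probe 1 and chr6:117125026-117125085 for probe 2), and they were designed on different transcripts. On chromosome 13 *Cxcl14* probe 1 lies at chr13:56390078-56390137, while its probe 2 covers 290 bases of the genome with 60 bases of probe (chr13:56397748-56398037, minus strand), so that it joins separate stretches. *Cxcl10* probe 2 lies 835 bases from probe 1. An annotation of mm9 was not used here, so the exon of each probe is not given. The first 30 of the 60 bases are shown for the *Cxcl1* probe and for the 3 genes whose probes read different stretches, from the scanner files, in lower case throughout.
Cxcl1: cgctcgggacagagacgttcaaaggactgt
Cxcl10 probe 1: gctttgcattgtatatggaagaacttgtgt
Cxcl10 probe 2: ttcctagtgtctagaagtggagcagttatt
Cxcl12 probe 1: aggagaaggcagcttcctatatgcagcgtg
Cxcl12 probe 2: gctgtaaacctcctaccgtatgtgggaatt
Cxcl14 probe 1: cctcattagaggccgcactgtatggctgtg
Cxcl14 probe 2: ttcttccaaggcactgaggagcgaatttaa

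Upstream sequence was at hand in RefSeq (GRCm38.p6) for 5 of the 10 genes, *Ccl8*, *Cxcl1*, *Cxcl9*, *Cxcl10* and *Cxcl12*. The window given for *Cxcl14* lies inside the bounds of that gene and was left out. The 250 bases before the gene start are shown for the CXC genes of the neutrophil and interferon groups, to set the gene with the largest fitted difference, *Cxcl1*, beside the 2 that are induced by interferon. Capitals mark matches on either strand to an NF-κB element, written as GGGA and CC with 4 bases of any kind between them, and to an interferon-stimulated response element, written as GAAA on both sides of 2 bases of any kind.
Cxcl1, chr5:90890995-90891244, plus strand: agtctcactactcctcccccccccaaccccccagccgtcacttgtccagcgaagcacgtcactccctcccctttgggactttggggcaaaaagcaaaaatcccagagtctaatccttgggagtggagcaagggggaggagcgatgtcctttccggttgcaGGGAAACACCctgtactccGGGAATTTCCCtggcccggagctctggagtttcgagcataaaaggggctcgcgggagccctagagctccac
Cxcl9, chr5:92328080-92328329, minus strand: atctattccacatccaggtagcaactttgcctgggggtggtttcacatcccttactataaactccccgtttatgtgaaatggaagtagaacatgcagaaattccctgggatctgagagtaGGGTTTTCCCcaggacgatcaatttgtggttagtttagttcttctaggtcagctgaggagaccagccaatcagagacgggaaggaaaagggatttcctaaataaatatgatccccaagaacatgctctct
Cxcl10, chr5:92348890-92349139, minus strand: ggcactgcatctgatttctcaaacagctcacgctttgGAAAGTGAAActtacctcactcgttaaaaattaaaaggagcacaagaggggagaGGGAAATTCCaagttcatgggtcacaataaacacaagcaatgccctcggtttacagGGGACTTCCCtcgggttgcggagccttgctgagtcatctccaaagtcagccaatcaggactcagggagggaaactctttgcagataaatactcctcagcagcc

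The *Cxcl1* window held 3 matches to the NF-κB letters, of which 2 overlap on opposite strands between 71 and 61 bases before the start. The *Cxcl10* window held 2, with 1 match to the interferon element 213 to 204 bases before the start, and the *Cxcl9* window held 1. The windows of *Ccl8* and *Cxcl12* held no match to either. Of the 32841 windows of this length in the RefSeq table, 17.6% held the NF-κB letters and 2.98% the interferon letters, and a match describes the letters and is not a measured site.

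The label of the tissue, brown adipose tissue, was borne out by only some of its marker genes, and the RNA also carried strong muscle signal. The only probe of *Ucp1*, the uncoupling protein that defines the brown adipocyte, stayed at background on every array, while *Cidea*, a lipid droplet protein of brown fat, was above it on all 8. Of the 10 brown adipocyte genes, 6 were above background on all 8 arrays (*Cidea*, *Dio2*, *Ppargc1a*, *Prdm16*, *Cox8b* and *Cpt1b*). The other 4, *Ucp1*, *Elovl3*, *Slc27a2* and *Bmp8b*, were above it on no array. None of the 10 was called changed, with summed signals of 289900 to 331094 in Co mice and 307974 to 333442 in Pg mice. *Cox8b*, a respiratory chain subunit that muscle also expresses, and *Cpt1b* gave 94.8% of that sum. All 10 skeletal muscle genes passed the background flag on every array, at a median of 18.28 on the log2 scale. Of these, 2 were above 0 and 8 under it with 0 called, and *Ckm* (-0.15) and *Mb* (-0.15), named after their values were seen, were lower on every Pg array. Their summed signals were 2833780 to 3015420 in Co mice and 2730980 to 2945180 in Pg mice, but quantile normalization nearly fixes the values of the brightest probes, so the sum could hardly differ. The sums of 10 adipocyte genes overlapped (89586 to 105024 and 88105 to 116418, with 82.6% from *Fabp4*). In Co mice 34760 to 35830 probes passed the background flag, and in Pg mice 31132 to 34063, without overlap. The Co arrays filled one row of the slide and the Pg arrays the other, so that group and position cannot be told apart.

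Of the 10 chemokines 8 could be tested between Co and Pg mice, and none was called, where 1.61% of all probes were. The largest fitted difference was that of *Cxcl1*, which recruits neutrophils, with a level 2.98-fold higher in Pg mice. Of the 13 probes, 8 were well above background on all 8 arrays, those of *Ccl2*, *Ccl8*, *Ccl11*, *Cxcl1* and *Cxcl9*, both of *Cxcl12* and the first of *Cxcl14*. *Cxcl10* probe 1 passed on 3 arrays of each group, and these 9 probes of 8 genes were tested. *Ccl7* passed on 1 Co and 2 Pg arrays, *Cxcl14* probe 2 on 2 Co arrays and 1 Pg array, and *Cxcl5* and *Cxcl10* probe 2 on none, so that no fold change is given for these 4 probes. All signals are log2 values of the processed intensity after quantile normalization, and the levels of different probes are not comparable. Differences are Pg minus Co on this scale.

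**Figure D1:**
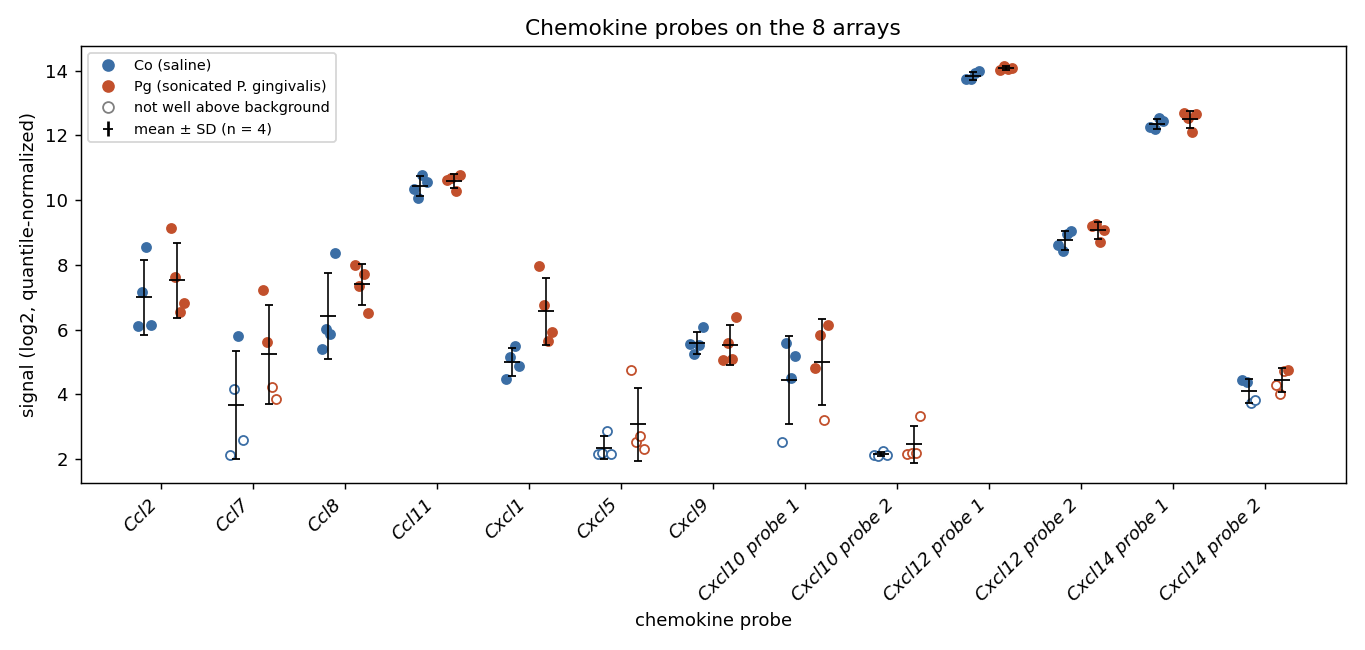
Signal of each chemokine probe (horizontal axis) in log2 units (vertical axis) on every Co and Pg array. Bars are the mean ± SD of 4 arrays, and open points mark arrays where the probe was not well above background, as on all 8 arrays for *Cxcl5*. The Co and Pg points of *Cxcl1* and of *Cxcl12* probe 1 do not overlap.

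A call needed an adjusted p under 0.1 (limma, Benjamini-Hochberg over the 33819 probes kept) and a fold change above 1.5. Among all probes kept, 1.61% were called, and 0 of the 9 chemokine probes were. At an unadjusted limma p under 0.05 there were 2 of the 9 (*Cxcl1* and *Cxcl12* probe 1), where the share over all probes was 22.8%. The same 2 probes had groups without overlap, 22.2% of the 9 against 15.8% of all probes. In both the Pg arrays were the higher, a direction in which 6.86% of all probes had such a p and 4.83% no overlap. That direction was taken after the values were seen, so the shares for it are no fair measure of these 2 probes. The fitted difference was above 0 for 8 of the 9 probes and for 42.3% of all probes, with a median of 0.30 against -0.04.

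**Figure D2:**
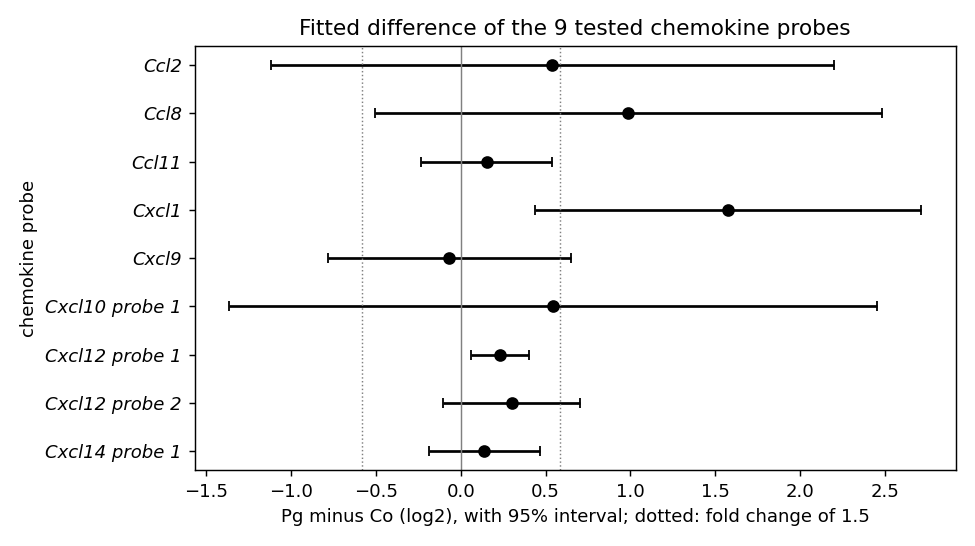
Fitted difference Pg minus Co of the 9 tested chemokine probes (vertical axis) in log2 units (horizontal axis), with 95% intervals of the limma fit. The interval excludes 0 for *Cxcl1* (0.44 to 2.71) and *Cxcl12* probe 1 (0.06 to 0.40), before adjustment for the number of probes.

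*Cxcl1* had log2 signals of 4.48, 5.15, 5.50 and 4.87 in the 4 Co mice and 7.96, 6.76, 5.66 and 5.91 in the 4 Pg mice. Every Pg mouse lay above every Co mouse, and Pg replicate 1 lay highest. The means were 4.998 ± 0.432 and 6.572 ± 1.035 (SD, n = 4), a difference of 1.57 (SE 0.49) or 2.98-fold, with a 95% interval from 1.35 to 6.56-fold. With an unadjusted p of 0.0129 and an adjusted p of 0.122 (limma), it missed the limit for a call. Without Pg replicate 3, the lowest Pg mouse, the difference was 1.88 with an adjusted p of 0.0933 (limma), which is a call, and without Pg replicate 1 it was 1.12. The size was smaller with another signal and background step, at 0.79 on the mean signal after normexp with an offset of 50. On the median signal without background subtraction it was 0.88. Signal and background step changed together, and their parts were not tested. In tissue RNA, a change in the number of cells of a type and a change in RNA per cell cannot be told apart.

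*Cxcl5*, the other neutrophil attractant among the 10, did not pass the background flag on any array. Its log2 values were 2.17, 2.19, 2.88 and 2.16 in Co mice and 4.75, 2.53, 2.70 and 2.29 in Pg mice. Pg replicate 1 stood above the other 7 arrays, as it did for *Cxcl1*, and the groups overlapped. *Cxcr2*, the receptor of both ligands, passed the background flag on 0 Co and 2 Pg arrays and so was not tested. Its log2 values were 2.31, 3.54, 2.49 and 2.92 in Co mice and 4.37, 4.90, 5.24 and 3.87 in Pg mice, without overlap. The close relatives *Cxcl2* and *Cxcl3*, from the list of other ligands, were above background on no array.

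Neutrophil genes were read beside *Cxcl1*, with the genes named here chosen after their values were seen. *S100a8*, a calcium-binding protein that neutrophils carry in bulk, had log2 signals of 4.56, 5.20, 5.33 and 5.09 in Co mice and 8.59, 8.32, 5.18 and 6.76 in Pg mice. Pg replicates 1 and 2 lay highest and Pg replicate 3 within the Co range, and the difference was 2.16 (SE 0.71, adjusted p = 0.132, limma). Its partner *S100a9* differed by 2.04 (SE 0.82, adjusted p = 0.195, limma). Of the 10 neutrophil genes, 6 were tested, and the median difference was 0.20 with all 6 above 0 and 0 called. The rest of the tested genes differed far less than *S100a8* and *S100a9*. These were *Ly6g* (0.09, SE 0.14), *Camp* (0.01, SE 0.08), *Mmp8* (0.16, SE 0.19) and *Csf3r* (0.24, SE 0.09). The summed signal of the 10 genes was 40156 to 50243 in Co mice and 47613 to 55113 in Pg mice. *Csf3r* alone gave 97.5% of it, so that the sum does not follow *S100a8* or *S100a9*. The granule genes *Ngp* and *Ltf* were above background on no array. The part of neutrophil RNA in the *Cxcl1* values was not tested.

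*Ccl2*, also called MCP-1, had log2 signals of 6.10, 7.17, 8.56 and 6.14 in Co mice and 9.13, 7.63, 6.55 and 6.82 in Pg mice. Co replicate 3 lay above 3 of the 4 Pg mice, and the groups overlapped. The means were 6.99 ± 1.16 and 7.53 ± 1.16 (SD, n = 4), a difference of 0.54 (SE 0.72, adjusted p = 0.688, limma). The 95% interval ran from 0.46 to 4.59-fold, so that these arrays allow a lower as well as a higher level in Pg mice. The spread was among the widest on the array, with a standard error above that of 99.1% of the probes. The difference was 0.01 without Pg replicate 1 and 1.06 without Co replicate 3.

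*Ccl7*, or MCP-3, lies next to *Ccl2* and was above background on Co replicate 3 and on Pg replicates 1 and 2. Its log2 values were 2.11, 4.16, 5.80 and 2.60 in Co mice and 7.24, 5.63, 4.24 and 3.87 in Pg mice. The mean was 3.67 ± 1.67 in Co mice and 5.24 ± 1.53 in Pg mice (SD, n = 4), and the groups overlapped. The mice with signal above background for *Ccl7* were the 3 with the highest *Ccl2*.

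*Ccl8*, or MCP-2, had log2 signals of 5.41, 6.01, 5.85 and 8.36 in Co mice and 7.997, 7.35, 7.72 and 6.52 in Pg mice. All Pg mice lay above Co replicates 1, 2 and 3, while Co replicate 4 was the highest of all 8. The difference was 0.99 (SE 0.65, 95% interval 0.70 to 5.59-fold, adjusted p = 0.401, limma). Without Co replicate 4 it was 1.63 with an adjusted p of 0.101 (limma), and after normexp with an offset of 50 it was 0.50. The mouse that was high for *Ccl8* in the Co group was therefore not the mouse that was high for *Ccl2* and *Ccl7*.

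Among receptors of these ligands, *Ccr2* had log2 signals of 5.89, 4.37, 6.03 and 5.67 in Co mice and 5.69, 7.57, 4.90 and 7.18 in Pg mice. The groups overlapped, and the difference was 0.85 (SE 0.64, adjusted p = 0.472, limma). *Ccr8* differed by -0.18 (SE 0.27, adjusted p = 0.716, limma). Of the 10 monocyte and macrophage genes, 9 were tested, and the median difference was 0.36 with 6 above 0, 3 under it and 0 called. Their summed signal was 78741 to 88292 in Co mice and 79134 to 100357 in Pg mice, with 82.8% of it from *Ly6c2* and *Itgam*, which differed by -0.05 each. None of the 10 was below background on every array.

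*Ccl11*, which recruits eosinophils, differed little between the groups. Its log2 signals were 10.34, 10.07, 10.76 and 10.57 in Co mice and 10.61, 10.69, 10.28 and 10.78 in Pg mice, and the groups overlapped. The difference was 0.15 (SE 0.17, adjusted p = 0.621, limma), with a 95% interval from 0.85 to 1.45-fold. Its receptor *Ccr3* was above background on no array. Of the 8 eosinophil genes, 3 were tested and 4 were above background on no array, with summed signals of 113 to 219 in Co mice and 121 to 410 in Pg mice, 49.5% of it from *Ear2*.

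*Cxcl9*, the first of the interferon-induced pair, had log2 signals of 5.55, 5.25, 5.51 and 6.07 in Co mice and 5.07, 5.58, 5.09 and 6.37 in Pg mice. The groups overlapped, with Pg replicate 4 highest and Pg replicate 1 lowest, and the difference was -0.07 (SE 0.31, 95% interval 0.58 to 1.57-fold, adjusted p = 0.914, limma). Its sign was not stable, since it was between 0.02 and 0.11 in the fits with normexp, with the median signal, with scaling to the 75th percentile and without normalization.

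*Cxcl10* probe 1 had log2 signals of 2.53, 5.58, 4.49 and 5.19 in Co mice and 4.81, 5.83, 3.21 and 6.13 in Pg mice. Co replicate 1 and Pg replicate 3 were the arrays below background, and they carried the lowest values of their groups. The difference was 0.55 (SE 0.83, adjusted p = 0.73, limma), with a 95% interval from 0.39 to 5.49-fold, and it was -0.09 without Co replicate 1. It was 0.15 with normexp, 0.23 with the median signal and 0.30 in the deposited table. With 75th percentile scaling it was 0.65, and without normalization 0.70. Probe 2, above background on no array, lay between 2.10 and 2.26 in Co mice and between 2.15 and 3.32 in Pg mice. Their receptor *Cxcr3* was above background on no array. Of the 10 T and NK cell genes 5 were tested, 1 above 0 and 4 under it (median -0.14) and none called, with summed signals of 1783 to 1935 in Co mice and 1712 to 1914 in Pg mice, 86.7% of it from *Cd4* and *Cd3e*.

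*Cxcl12*, which holds CXCR4-bearing cells in tissues, was measured by 2 probes. Probe 1 had log2 signals of 13.73, 13.75, 13.92 and 13.98 in Co mice and 14.02, 14.15, 14.05 and 14.09 in Pg mice. Every Pg mouse lay above every Co mouse, but the difference was small, at 0.23 (SE 0.07) or 1.17-fold with a 95% interval from 1.04 to 1.32-fold, below the fold limit of 1.5 (unadjusted p = 0.0152, adjusted p = 0.13, limma). Probe 2 had log2 signals of 8.62, 8.42, 8.95 and 9.06 in Co mice and 9.21, 9.25, 8.70 and 9.09 in Pg mice. Here Pg replicate 3 lay below 2 Co mice, and the difference was 0.30 (SE 0.17, adjusted p = 0.342, limma), in the same direction as that of probe 1.

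The receptor *Cxcr4* differed by -0.31 (SE 0.19, adjusted p = 0.373, limma), and *Ackr3*, a scavenging receptor of CXCL12, by 0.19 (SE 0.15, adjusted p = 0.492, limma). Of 8 endothelial genes all were tested, 5 above 0 and 3 under it (median 0.08) and 0 called, and their summed signal was 14170 to 18061 in Co mice and 17033 to 18678 in Pg mice. *Kdr*, a VEGF receptor of endothelial cells named after its values were seen, was higher on every Pg array, by 0.57 (SE 0.11, adjusted p = 0.0573, limma), and missed a call by the fold limit alone. *Pecam1*, an adhesion molecule of the same cells that was also named after its values were seen, was lower on every Pg array, with a difference of -0.20 (SE 0.07, adjusted p = 0.151, limma). Of 8 fibroblast genes 5 lay above 0 and 3 under it (median 0.07) and 0 were called, with summed signals of 92831 to 139850 and 100010 to 137596, with 52.9% from *Dcn*. The part of these cell types in the *Cxcl12* values was not tested.

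*Cxcl14*, which brown fat secretes, was read by 1 probe that was above background throughout. Probe 1 had log2 signals of 12.26, 12.19, 12.53 and 12.46 in Co mice and 12.69, 12.54, 12.11 and 12.65 in Pg mice. Pg replicate 3 was the lowest of all 8 mice while the other Pg mice were the 3 highest. The difference was 0.14 (SE 0.14, adjusted p = 0.597, limma), with a 95% interval from 0.88 to 1.38-fold. Probe 2, which joins separate stretches of the genome, lay between 3.72 and 4.46 in Co mice and between 3.999 and 4.75 in Pg mice and was above background on 3 of the 8 arrays.

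**Figure D3:**
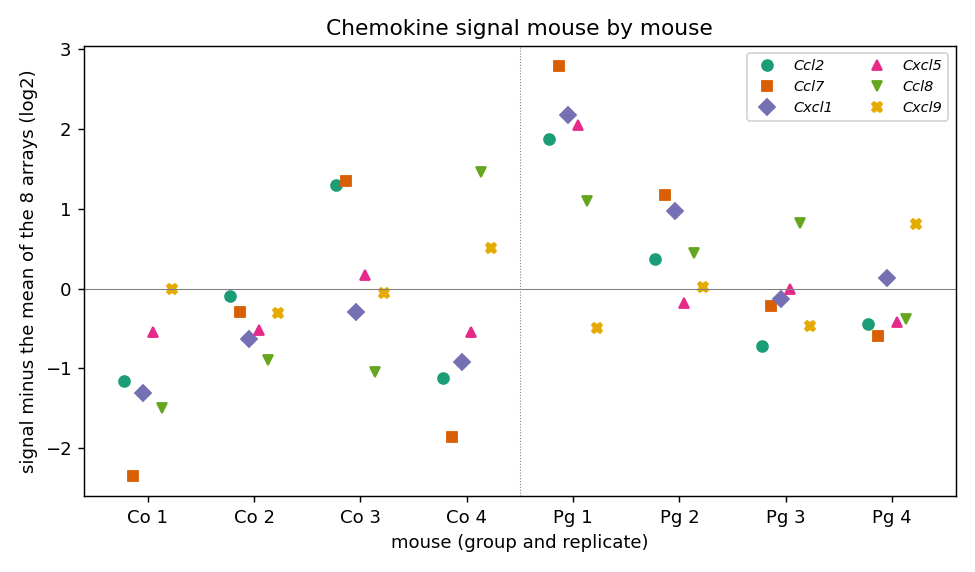
Log2 signal of 6 chemokines in each mouse (horizontal axis), minus the mean of the gene over the 8 arrays (vertical axis). *Ccl2*, *Ccl7*, *Cxcl1* and *Cxcl5* are all highest in Pg replicate 1, while *Ccl8* is highest in Co replicate 4 and *Cxcl9* in Pg replicate 4. Values of *Cxcl5*, and of *Ccl7* in 5 mice, were not well above background.

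Some chemokines were high in the same mice. Pg replicate 1 had the highest signal for 5 of the 10 genes and Co replicate 1 the lowest for 6, with each gene read by its first probe. Of these, the value of *Cxcl5* in Pg replicate 1 and those of *Ccl7* and *Cxcl10* in Co replicate 1 were not well above background. Over 45 pairs of genes and 8 mice, 39 correlations were above 0, and 5 passed an adjusted p under 0.1 (exact permutation test of Pearson's r over 40320 orders, two-sided, Benjamini-Hochberg over the 45 pairs). Pairs of other probes were not counted, and 4 of the 5 hold *Ccl7* or *Cxcl5*, which were below background on 5 and on all 8 arrays. The tightest pair was *Ccl2* and *Ccl7*, neighbours on chromosome 11, with r = 0.953 (exact permutation p = 0.000174, adjusted p = 0.00781) and Spearman's rho = 0.929 (exact permutation p = 0.00223, adjusted p = 0.0502). It was 0.929 without Co replicate 3 and Pg replicate 1, the mice farthest from the median of *Ccl2*, and 0.982 after the group means were taken out. The pair went together within Co mice (r = 0.990) as within Pg mice (r = 0.975, n = 4 each, with no test), although *Ccl7* was below background in 5 mice.

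*Ccl7* also went with *Cxcl1*, with r = 0.878 (exact permutation p = 0.0037, adjusted p = 0.0554) and rho = 0.762 (exact permutation p = 0.0368, adjusted p = 0.236), and r was 0.644 without Co replicate 1 and Pg replicate 1. For *Ccl2* and *Cxcl5*, r was 0.808 (exact permutation p = 0.00583, adjusted p = 0.0558) and rho 0.81 (exact permutation p = 0.0218, adjusted p = 0.236), but r was 0.370 without Co replicate 3 and Pg replicate 1, so that the relation rests on those mice. For *Ccl7* and *Cxcl5*, r was 0.81 (exact permutation p = 0.00246, adjusted p = 0.0552) and rho 0.929 (exact permutation p = 0.00223, adjusted p = 0.0502), with r = 0.761 without Co replicate 1 and Pg replicate 1. *Cxcl5* was below background in every mouse, so its 2 relations are between values near the limit of the array. *Ccl11* and *Cxcl14*, on different chromosomes, had r = 0.878 (exact permutation p = 0.0062, adjusted p = 0.0558) and rho = 0.81 (exact permutation p = 0.0218, adjusted p = 0.236), and r was 0.781 without Co replicate 2 and Pg replicate 3.

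Genes whose pattern over the 8 mice was most like each chemokine were sought among 29222 probes above background on all arrays. The highest Pearson's r was 0.983 for *Ccl11* (with *Zbtb24*) and 0.968 for *Cxcl9* (with *Ltbp4*). It was 0.970 for *Cxcl12* probe 2 (with *Chst7*), 0.975 for *Cxcl14* probe 1 (with *Ccn5*) and 0.959 for *Ccl8* (with *9930024M15Rik*). The best matches of *Cxcl1* (0.982) and of *Cxcl12* probe 1 (0.984) were probes without a gene symbol. Between 16 and 221 probes had r above 0.9 with a given chemokine probe, so the leading gene is 1 of many over only 8 mice.

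**Figure D4:**
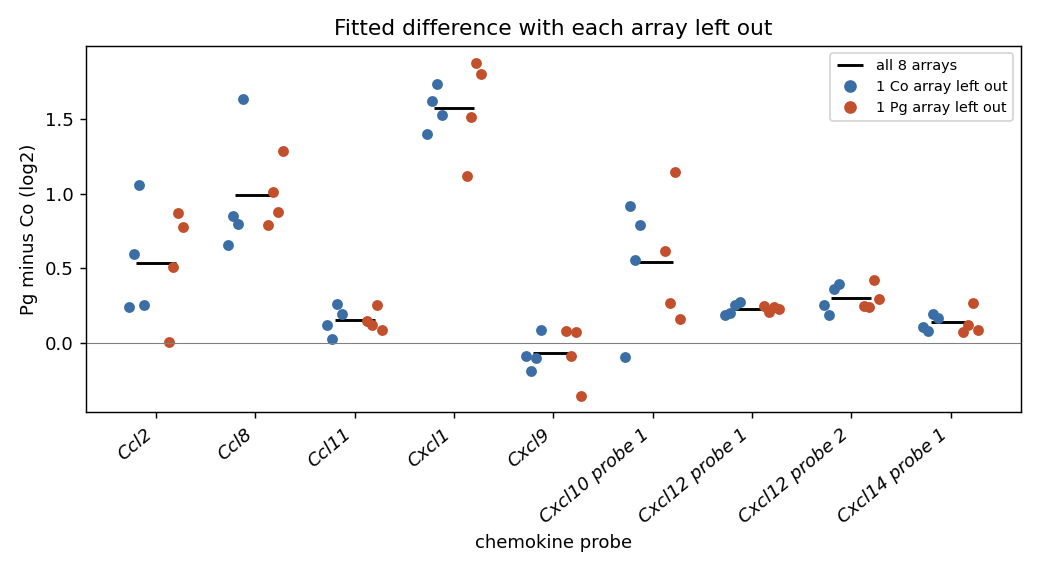
Fitted difference Pg minus Co in log2 units (vertical axis) for the 9 tested chemokine probes (horizontal axis) with all 8 arrays (bars) and with 1 Co or 1 Pg array left out (points). *Cxcl1* stays between 1.12 and 1.88, *Ccl2* ranges from 0.01 to 1.06, and the sign of *Cxcl9* and *Cxcl10* probe 1 changes.

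With each array left out in turn, 7 of the 9 probes stayed above 0 in all 8 fits and the other two, *Cxcl9* and *Cxcl10* probe 1, did not. The ranges were narrow for *Cxcl12* probe 1 (0.19 to 0.28), *Cxcl12* probe 2 (0.19 to 0.42), *Cxcl14* probe 1 (0.07 to 0.27) and *Ccl11* (0.03 to 0.26). They were wide for *Ccl8* (0.66 to 1.63), *Cxcl10* probe 1 (-0.09 to 1.14) and *Ccl2*. Of the 9 probes, 5 had a standard error above that of 90% of all probes tested, those of *Ccl2*, *Ccl8*, *Cxcl1*, *Cxcl9* and *Cxcl10*.

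The rest of the chemokine family was read from the same fit, with the tested probe of highest mean signal for each gene. Of 26 other ligands, 15 were tested and 7 were above background on no array. Of the 15, 11 lay above 0 and 4 under it, at a median difference of 0.18 against -0.04 over all probes. There were 0 called and none at an unadjusted p under 0.05 (limma), where the shares over all probes were 1.61% and 22.8%. The ligands with the largest differences among those above background on all arrays were *Ccl19*, *Ccl6* and *Ccl17*. *Ccl19*, which guides dendritic cells and T cells through CCR7, had log2 signals of 6.46, 6.34, 6.75 and 6.58 in Co mice and 8.38, 8.76, 6.28 and 6.73 in Pg mice. Pg replicates 1 and 2 were high and the other two Pg mice lay near the Co mice, and the difference was 1.00 (SE 0.54, adjusted p = 0.31, limma).

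*Ccl6*, a macrophage-expressed ligand of CCR1, differed by 0.54 (SE 0.40, adjusted p = 0.461, limma), and *Ccl17*, a ligand of CCR4, by -0.50 (SE 0.39, adjusted p = 0.488, limma). Co and Pg arrays were apart for 3 of the 15, *Ccl25* (0.21), *Cxcl11* (0.11) and *Ccl27a* (-0.12), named after their values were seen, where 15.8% of all probes were apart. The sign was shared by only 2 of the 3 tested probes of *Ccl25*, but by both of *Cxcl11* and all 3 of *Ccl27a*. *Cxcl11* carried 94.8% of the summed signal of the other ligands (188689 to 206068 in Co mice and 213153 to 228128 in Pg mice), with a mean log2 signal of 17.54 in Co mice. In GRCm38.p6 its gene (chr5:92359544-92363296) and that of *Cxcl10* (chr5:92346638-92348889) lie within the bounds of *Art3* (chr5:92331799-92414628), and whether the *Cxcl11* probe reads *Cxcl11* alone was not tested.

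Of 23 receptors, 13 were tested, 7 above 0 and 6 under it (median 0.17). Against 1.61% of all probes called and 22.8% at an unadjusted p under 0.05 (limma), 0 receptors were called and 1 had such a p. That gene was *Ccr7*, the receptor of CCL19, with log2 signals of 5.90, 5.74, 5.67 and 6.17 in Co mice and 5.13, 5.23, 5.13 and 5.87 in Pg mice. Only Pg replicate 4 lay within the Co range, and the difference was -0.53 (SE 0.19, adjusted p = 0.158, limma). *Cx3cr1*, the fractalkine receptor of monocytes, differed by 0.95 (SE 0.44, adjusted p = 0.247, limma), with Co mice between 4.93 and 6.35 and Pg mice between 5.78 and 7.29. *Cd79b*, a part of the B cell receptor, was the only marker gene called on any list, with a difference of 1.69 (SE 0.44, adjusted p = 0.0867, limma), with 4 of the 6 B cell genes tested, 2 higher and 2 lower.

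**Figure D5:**
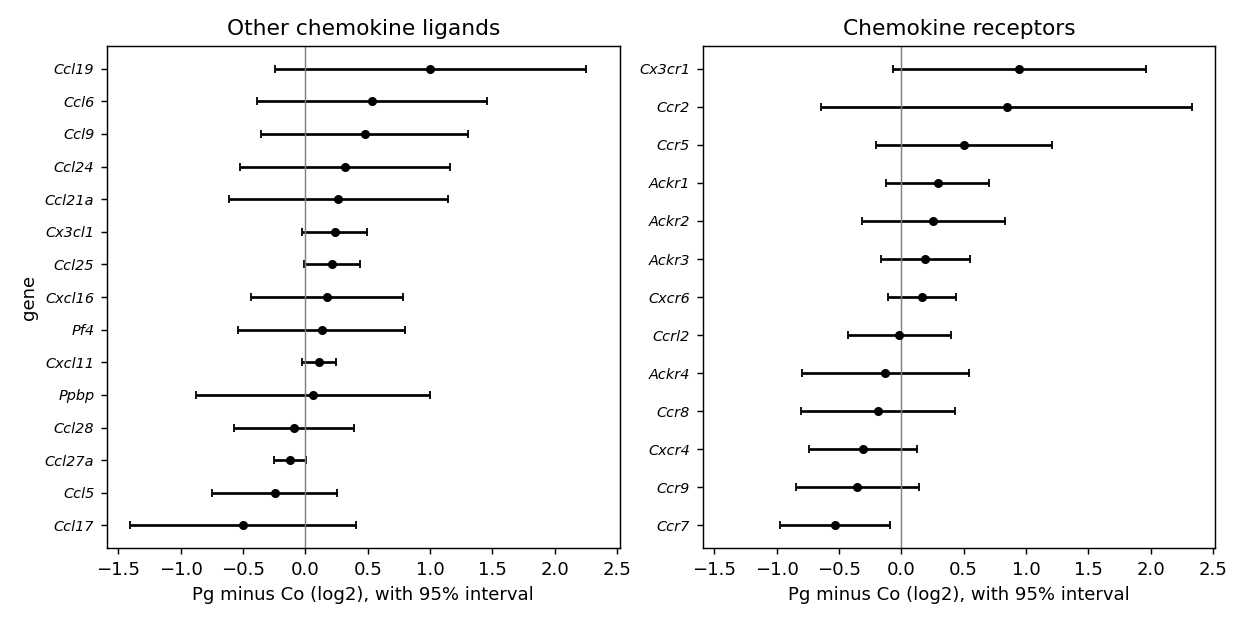
Fitted difference Pg minus Co in log2 units (horizontal axes) with 95% intervals of the limma fit for the 15 tested other chemokine ligands and the 13 tested receptors (vertical axes). *Ccl19* and *Cx3cr1* have the highest values, 1.00 and 0.95, and *Ccr7* is the only gene whose interval excludes 0 before adjustment.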

How the data were processed

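Total RNA of 8 mice was labelled with Cy3 and hybridized to Agilent 8 × 60K one-color arrays, all on 1 slide read in 1 scan. The authors deposited the scanner output of Feature Extraction 11.0.1.1, which per the labels and file headers holds the intensity of each spot, background-subtracted and detrended within the array but not normalized between arrays. The authors also deposited a table of background-corrected, quantile-normalized log2 values, used as an alternative. Its fold changes, p-values and q-values are the authors' own comparison and were not used.

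Non-control spots without a population outlier mark (90 to 150 marked per array) were read with data.table (version 1.17.8) in R 4.3.3 and averaged per probe. The 8 arrays were quantile-normalized, values under 1 were set to 1 and log2 was taken. A probe was kept if flagged well above background on 4 arrays or more (33819 of 56605). The groups were fitted in limma 3.58.1 (lmFit, then eBayes), with two-sided p-values adjusted by Benjamini-Hochberg over all probes kept. The fit was tested on simulated data. Limits for a call follow the study's methods. With 4 arrays against 4 the number of arrays limits the precision.

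No chemokine probe was marked saturated on any array. Marker lists were of brown adipocyte, adipocyte, skeletal muscle, monocyte and macrophage, neutrophil, eosinophil, T and NK cell, B cell, endothelial and fibroblast genes, and summed signals are sums of the linear normalized signals of a list. Named beside the 10 members were the 3 genes of the other ligands and of the receptors with the largest differences among those above background on all arrays, every gene called, *Ucp1* and *Cidea*, and the most alike gene of each probe (that of *Ccl2* is not reported here). Receptors of the members and other genes outside this rule were chosen after their values were seen. The members and lists were chosen with earlier results of these data known.

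The 2 groups share replicate numbers, which also give the column of the slide. The correlation of the deviations of same-numbered arrays was 0.06, -0.03, -0.07 and 0.18. For each Co array the highest with a Pg array of another number was 0.04, 0.13, 0.06 and 0.01. The numbers were not used as pairs in the main fit. Alternatives were another background step, another scaling, other filters, the replicate number as a block, the deposited table and each array left out.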

Additional observations from a re-analysis of the deposited data

Results flagged for a closer look

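Of 38 groups of 4 arrays (13 chemokine probes and 6 named genes in each group), 4 held an array far from the other 3 by Dixon's criterion, where chance gives about 1 in 20. *Cxcl5* read 2.88 in Co replicate 3, against 2.16 to 2.19 in the other Co mice, and 4.75 in Pg replicate 1, against 2.29 to 2.70 in the other Pg mice. *Cxcl10* probe 2 read 3.32 in Pg replicate 4, against 2.15 to 2.18 in the other Pg mice. All 3 values are from arrays on which the probe was not well above background. *Ccr7* read 5.87 in Pg replicate 4, against 5.13 to 5.23 in the other Pg mice.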

How the results depend on the processing

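No alternative run made a call of any chemokine probe except leaving out Pg replicate 3, which called *Cxcl1* (1 of 9 probes, adjusted p = 0.0933, limma), and the count was 0 to 1 with each array left out. Of the 9 fitted differences, 7 kept their direction in every alternative. *Cxcl9* was above 0 in 8 of 16 alternatives, at 0.017 with normexp, 0.055 with the median signal, 0.059 with 75th percentile scaling, 0.11 without normalization and 0.047 in the deposited table, and it ranged from -0.35 to 0.088 with each array left out. *Cxcl10* probe 1 ranged from -0.093 (without Co replicate 1) to 1.14 with each array left out. Of the other ligands and receptors, 1 was called with no filter on dim probes (*Cxcr2*, above background on 2 arrays), and 0 to 1 with each array left out (*Ccr7* without Pg replicate 4).

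The number of all probes called was 546 (106 higher, 440 lower). It was 94 with normexp (66 and 28), 108 with the median signal (75 and 33), 283 with 75th percentile scaling (137 and 146), 27 without normalization (20 and 7), 372 with no filter, 318 with probes above background on all 8 arrays, 106 in the deposited table and 2644 without the fold limit. With each array left out it ranged from 2 (without Co replicate 3) to 692 (without Pg replicate 3). With the replicate number as a block it was 0, and the adjusted p of *Cxcl1* was 0.208 (limma). The labels do not say whether the numbers pair the mice, and the numbers also give the slide column. The cause of these shifts was not tested. With the looser flag of a significantly positive signal, 10 of the 13 chemokine probes passed on all arrays in place of 8. The dim probes of *Ccl7*, *Cxcl5* and *Cxcl10* are limited by their signal over background.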
